A study of Mus musculus with 9 samples.

Results

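Keratins 14, 15, 17 and 6a and the transcription factor p63 were followed over 3 groups of laser-captured mouse prostate lesions. The 5 genes, Krt14, Krt15, Krt17, Krt6a and Trp63, were taken from a list of basal epithelial genes, and each is read by 1 probe set that lists its symbol alone, among 22180 genes with such a probe set. Krt15 and Krt17 drew attention because they differed between HG-PIN lesions of the genotypes, so values from that comparison are given as a description without a test. HG-PIN is high-grade prostatic intraepithelial neoplasia, a lesion of dysplastic epithelium inside the gland.

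The samples were poorly differentiated adenocarcinomas, labelled solid tumours, of PbCre;T-3Mb-Erg/+;PtenL/L mice (3 arrays), HG-PIN lesions of the same 3 mice (3 arrays), and HG-PIN lesions of PbCre;PtenL/L mice (3 arrays from 3 other mice). All mice were males of mixed strain, aged 12 months. Every group, the PbCre;PtenL/L lesions included, therefore carried PbCre and PtenL/L, with Cre under the probasin promoter, which is active in prostate epithelium. No group is normal prostate, and the lesions called T-3Mb-Erg differ from the others by 1 copy of that allele, which the study's title ties to single-copy loss of the genes lying between TMPRSS2 and ERG. Lesions were cut by laser from haematoxylin-stained sections of fixed, embedded prostates, guided by adjacent sections read by a pathologist.

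Keratins are the intermediate filament proteins of epithelia and assemble as pairs of a type I and a type II chain. In the prostate, basal cells line the base of the gland under the secretory luminal cells and are marked by Krt14 (type I), its type II partner Krt5, and p63, a p53-family factor needed to maintain basal epithelia. Krt15 is a type I keratin of basal and stem-like cells in skin, while Krt17 (type I) and Krt6a (type II) are induced in stressed, wounded or hyperproliferative epithelium. Luminal cells carry Krt8 and Krt18.

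The type I members Krt15, Krt14 and Krt17 lie in that order, by rising coordinate, in the keratin cluster of chromosome 11, and Krt6a lies in the cluster of chromosome 15. Krt14 is the only member with an entry in the RefSeq promoter table used here (GRCm38.p6), shown because Krt14 varied with Krt15 and Krt17 over the arrays. Its window, chr11:100205981-100206280 on the minus strand, holds 250 bases before and 50 after an annotated start. All 300 bases lie within the annotated span of the gene, so this start is not at the outer end of Krt14.
Krt14: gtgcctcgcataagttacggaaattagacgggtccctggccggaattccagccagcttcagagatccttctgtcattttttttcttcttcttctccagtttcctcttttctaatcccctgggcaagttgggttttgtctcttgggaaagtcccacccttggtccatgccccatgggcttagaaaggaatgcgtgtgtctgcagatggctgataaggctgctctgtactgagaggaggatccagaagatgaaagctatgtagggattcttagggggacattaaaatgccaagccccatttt
No letter is in capitals because none of the motifs searched on both strands occurs in it: the AP-1 site TGANTCA (in 7.81% of 32851 promoter windows), the TATA box TATAAA (13.6%), the GC box GGGCGG (35.7%) and the p53-family half-site (1.93%). The sequence before the outer end of Krt14 was not searched, so nothing is read from the lack of motifs. The entries of Krt15, Krt17, Krt6a and Trp63 are missing.

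Values are log2 of the deposited intensity, and the number of arrays limits their precision. As a gauge of background, 95% of 1390 olfactory and vomeronasal receptor genes had a mean log2 intensity below 4.81. The 95th percentile of log2 signal on an array, a measure of its range, lay between 6.15 and 6.65 in tumours, 6.26 and 6.61 in HG-PIN of the same mice and 6.16 and 6.49 in PbCre;PtenL/L HG-PIN. Whether the basal label holds was checked on the defining basal genes. Krt5 has no probe set of its own, since its probe set is shared with Krt6a, and it is not analysed here. Trp63 averaged 4.62 over all arrays, below the receptor level, and exceeded that level on 2 of 9 arrays. Of 19 measured basal adhesion and p63-programme genes, 4 had a mean above it. Over all 16635 genes tested, which leave out the lowest 25% by mean signal, 27.9% had a mean above it. Of the 19 genes, 18 were among those tested, so the 2 shares have unlike bases and nothing is read from that count. Because Krt5 is not analysed and Trp63 lay near background, the genes are called by their names here. They are not taken as a measure of basal cells.

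**Figure D1:**
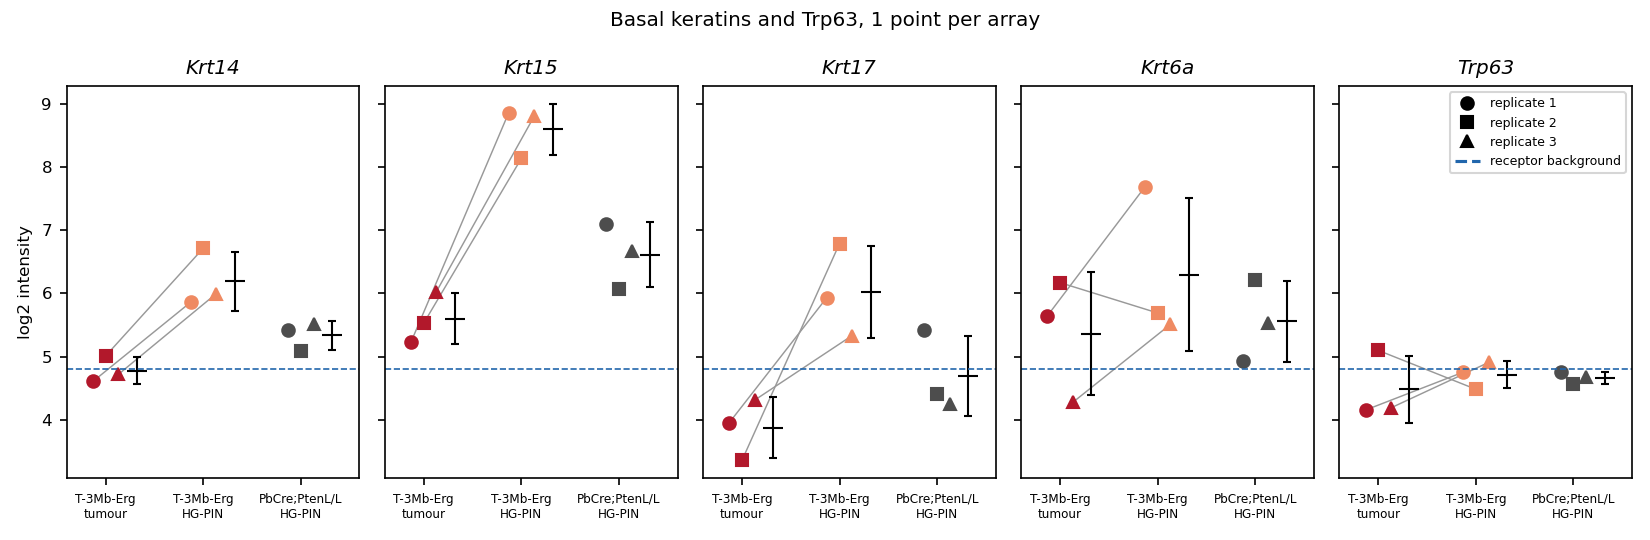
The log2 intensity of each gene is plotted by group, with 1 point per array, the symbol giving the replicate, grey lines joining the lesions of the same mouse, and bars showing mean and SD (n = 3). Krt15 in T-3Mb-Erg HG-PIN lies between 8.14 and 8.86, above all other arrays, while Trp63 stays near the dashed receptor level of 4.81 in every group.

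Krt15 had the highest levels in T-3Mb-Erg HG-PIN and the lowest in tumours. It read 5.24, 5.53 and 6.03 in tumours (replicates 1, 2 and 3), 8.86, 8.14 and 8.80 in HG-PIN of the same mice, and 7.10, 6.08 and 6.68 in PbCre;PtenL/L HG-PIN. No group overlapped another, although tumours and PbCre;PtenL/L HG-PIN came within 0.05 of each other, and all 9 arrays lay above the receptor level. The means were 5.60 ± 0.40 in tumours, 8.60 ± 0.40 in HG-PIN of the same mice and 6.62 ± 0.51 in PbCre;PtenL/L HG-PIN (SD, n = 3 each). The tumour lesion was below the HG-PIN lesion by the same sign in 3 of 3 mice, with differences of -3.62, -2.60 and -2.77. The mean difference was -3.0 (SE 0.41), a 7.99-fold lower signal. Its HG-PIN arrays are those on which Krt15 was chosen, so it is given without a test. Between the HG-PIN groups the difference was 1.98 (SE 0.40), or 3.95-fold higher in T-3Mb-Erg lesions. Krt15 was chosen on this difference, so its size is a description only. In captured tissue, fewer cells of a type and less RNA per cell cannot be told apart.

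Krt17 followed the same order of group means with a wider spread. It read 3.96, 3.36 and 4.31 in tumours, 5.94, 6.79 and 5.34 in HG-PIN of the same mice, and 5.42, 4.41 and 4.26 in PbCre;PtenL/L HG-PIN. Tumours and T-3Mb-Erg HG-PIN did not overlap, but the HG-PIN groups did, since T-3Mb-Erg replicate 3 lay below PbCre;PtenL/L replicate 1, and tumours and PbCre;PtenL/L HG-PIN overlapped as well. The mean was 3.88 ± 0.48 in tumours, 6.02 ± 0.73 in HG-PIN of the same mice and 4.70 ± 0.63 in PbCre;PtenL/L HG-PIN (SD, n = 3 each). Only the 3 T-3Mb-Erg HG-PIN arrays and PbCre;PtenL/L replicate 1 exceeded the receptor level, so background limits the size of both differences. Tumour minus HG-PIN was -1.98, -3.43 and -1.02 in the 3 mice, with a mean of -2.14 (SE 0.42), and T-3Mb-Erg minus PbCre;PtenL/L HG-PIN was 1.32 (SE 0.42). Krt17 was chosen on the same arrays as Krt15 and has no test here either.

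Krt14, the keratin partner of Krt5, showed smaller differences in the same directions. It read 4.61, 5.01 and 4.72 in tumours, 5.86, 6.72 and 5.99 in HG-PIN of the same mice, and 5.42, 5.09 and 5.52 in PbCre;PtenL/L HG-PIN. No group overlapped another, with tumours closest to PbCre;PtenL/L HG-PIN at a gap of 0.07. Krt14 averaged 4.78 ± 0.21 in tumours and 6.19 ± 0.46 in T-3Mb-Erg HG-PIN (SD, n = 3 each), so the tumour mean lay at the receptor level. The difference was -1.41 (SE 0.30, 95% interval -2.07 to -0.75, 2.66-fold lower) and negative in 3 of 3 mice at -1.25, -1.70 and -1.27. By limma over all genes it did not pass (adjusted p = 0.0955), nor with a fixed replicate block for the mouse (adjusted p = 0.232). It passed when only genes above the receptor level were tested (adjusted p = 0.0462), under array weights (0.00718) and in a model that holds each array's signal range (0.0315), and over all alternatives the adjusted p lay between 0.00718 and 0.567. Between the HG-PIN groups the mean was 6.19 in T-3Mb-Erg and 5.34 ± 0.23 in PbCre;PtenL/L lesions, a difference of 0.85 (SE 0.30).

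Krt6a, the stress-induced type II keratin, did not separate any pair of groups. It read 5.65, 6.17 and 4.28 in tumours, 7.69, 5.69 and 5.51 in HG-PIN of the same mice, and 4.93, 6.21 and 5.53 in PbCre;PtenL/L HG-PIN. The array of T-3Mb-Erg HG-PIN replicate 1 stood above all others, and the other two of that group lay within the range of the PbCre;PtenL/L lesions. The mouse differences of tumour minus HG-PIN were -2.04, 0.48 and -1.23, with a mean of -0.93 (SE 0.63, 95% interval -2.30 to 0.44, adjusted p = 0.862 by limma). Without that array the difference between tumours and HG-PIN was -0.21 (adjusted p = 0.989), and that between the HG-PIN groups moved to 0.02, against 0.74 with it. The same array held the highest smooth muscle signal, with Acta2, the smooth muscle actin, at 8.33 and Myh11, the smooth muscle myosin, at 7.43, against at most 6.48 and 4.75 elsewhere; the part of this signal in the Krt6a value was not tested. Krt6b, a close copy of Krt6a whose probes may share its signal, averaged 4.54 ± 0.37 in tumours, 4.87 ± 0.27 in HG-PIN of the same mice and 4.81 ± 0.12 in PbCre;PtenL/L HG-PIN (SD, n = 3 each).

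Trp63 readings overlapped between all groups. It read 4.16, 5.10 and 4.19 in tumours, 4.76, 4.49 and 4.91 in HG-PIN of the same mice, and 4.75, 4.57 and 4.67 in PbCre;PtenL/L HG-PIN. The highest reading came from a tumour. The difference between tumours and HG-PIN was -0.23 (SE 0.28, 95% interval -0.84 to 0.37, adjusted p = 0.977), and that between the HG-PIN groups was 0.05 (SE 0.27). At a level near background, a lower or higher Trp63 transcript level was not detectable here.

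**Figure D2:**
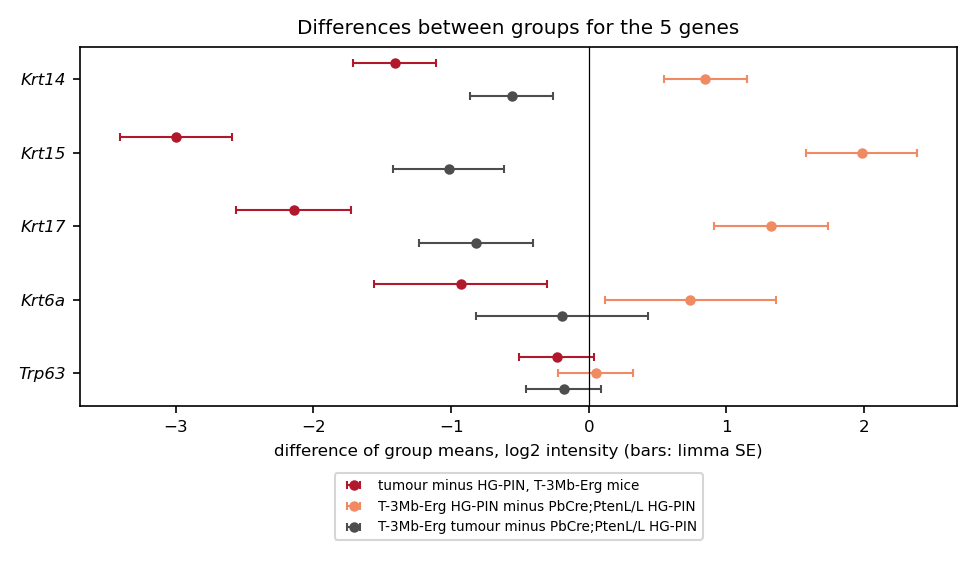
Differences of group means in log2 intensity are plotted for the 5 genes, with bars showing the SE from limma. Krt15, Krt17 and Krt14 lie left of 0 for tumour minus HG-PIN (-3.0, -2.14 and -1.41) and right of 0 for T-3Mb-Erg minus PbCre;PtenL/L HG-PIN (1.98, 1.32 and 0.85), while Trp63 lies near 0 in all comparisons.

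Within T-3Mb-Erg mice, tumours and HG-PIN were apart without overlap for 3 of the 5 genes, Krt14, Krt15 and Krt17, all lower in tumours. Over all 16635 genes tested, 6.43% were lower in this way. None of the 3 genes that could be tested (Krt14, Krt6a and Trp63) passed in limma, with Krt14 at an unadjusted p under 0.05, while limma called 0.216% of all genes lower (36 genes) and 0.283% in either direction. The median difference of the 5 genes was -1.41, against -0.01 over all genes. Krt15 and Krt17 were chosen on the same HG-PIN arrays, so nothing is read from this median or from the 3 of 5. Between the HG-PIN groups, T-3Mb-Erg lesions lay above PbCre;PtenL/L lesions without overlap for 2 of the 5 genes, Krt14 and Krt15, and 4.86% of all genes did. There limma called 0% of genes in either direction, where 304 rises and 378 falls had an unadjusted p under 0.05. The gene set was chosen in this comparison, so nothing is read from these shares.

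Tumours and PbCre;PtenL/L HG-PIN differ in both genotype and lesion, which cannot be told apart. Tumours were lower without overlap for Krt14 and Krt15, as were 7.51% of all genes (0.0721% by the limma call), with differences of -0.56 (SE 0.30, adjusted p = 0.632 by limma) for Krt14 and -1.02 (SE 0.40, no test) for Krt15. Krt17 stood at -0.82 (SE 0.42, no test; -0.46 without PbCre;PtenL/L HG-PIN replicate 1 or with log2(value + 16)), Krt6a at -0.19 (adjusted p = 0.960) and Trp63 at -0.18 (adjusted p = 0.914). The sign of Krt6a turned under some settings, for example to 0.23 without tumour replicate 3. Both tumour comparisons share the tumour arrays. The level of each of the 5 genes had the same order of group means: highest in T-3Mb-Erg HG-PIN, then PbCre;PtenL/L HG-PIN, then tumours. For Krt6a and Trp63 no neighbours in this order stood apart, and for Krt17 PbCre;PtenL/L HG-PIN stood apart from neither neighbour. Krt15 and Krt17 were chosen on the first step of this order. The share of all genes with the same order of means was not counted, so nothing is read from it. For Trp63 the difference between the HG-PIN groups turned to -0.09 without T-3Mb-Erg HG-PIN replicate 3 and to -0.03 with array weights.

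The keratin clusters showed where these differences lay among related genes. Of 53 keratin genes on chromosomes 11 and 15, 52 were measured, and the group mean of 19 exceeded the receptor level in at least 1 group. The median difference over the 52 was -0.17 for tumours minus HG-PIN and 0.08 for T-3Mb-Erg minus PbCre;PtenL/L HG-PIN. The keratins with T-3Mb-Erg HG-PIN above both other groups without overlap were Krt15, Krt14, Krt4 and Krt8 among 46 tested, while Krt25, a hair follicle keratin below the receptor level in every group, showed it without entering the test. Of all genes tested 1.21% had this pattern. It uses the HG-PIN comparison on which Krt15 and Krt17 were chosen, and without these it held for 3 of 44. Krt14, a member of the gene set followed here, is among the 3, so nothing is read from that share. Krt16, which lies between Krt14 and Krt17, stayed at 3.15 ± 0.32 in tumours, 3.11 ± 0.11 in HG-PIN of the same mice and 3.47 ± 0.25 in PbCre;PtenL/L HG-PIN, below the receptor level. Krt75, a follicle keratin on the basal list, exceeded that level on 0 of 9 arrays (-0.11 for tumours minus HG-PIN, adjusted p = 0.995). Krt13, the neighbour of Krt15, read 4.88 ± 0.21, 5.33 ± 0.15 and 5.33 ± 0.14 in those groups. The measured neighbours of Krt15 had smaller differences: Krt13 stood at -0.45 and Krt19, a keratin of simple epithelia on its other side, at -1.16 for tumours minus HG-PIN (adjusted p = 0.763 and 0.573).

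**Figure D3:**
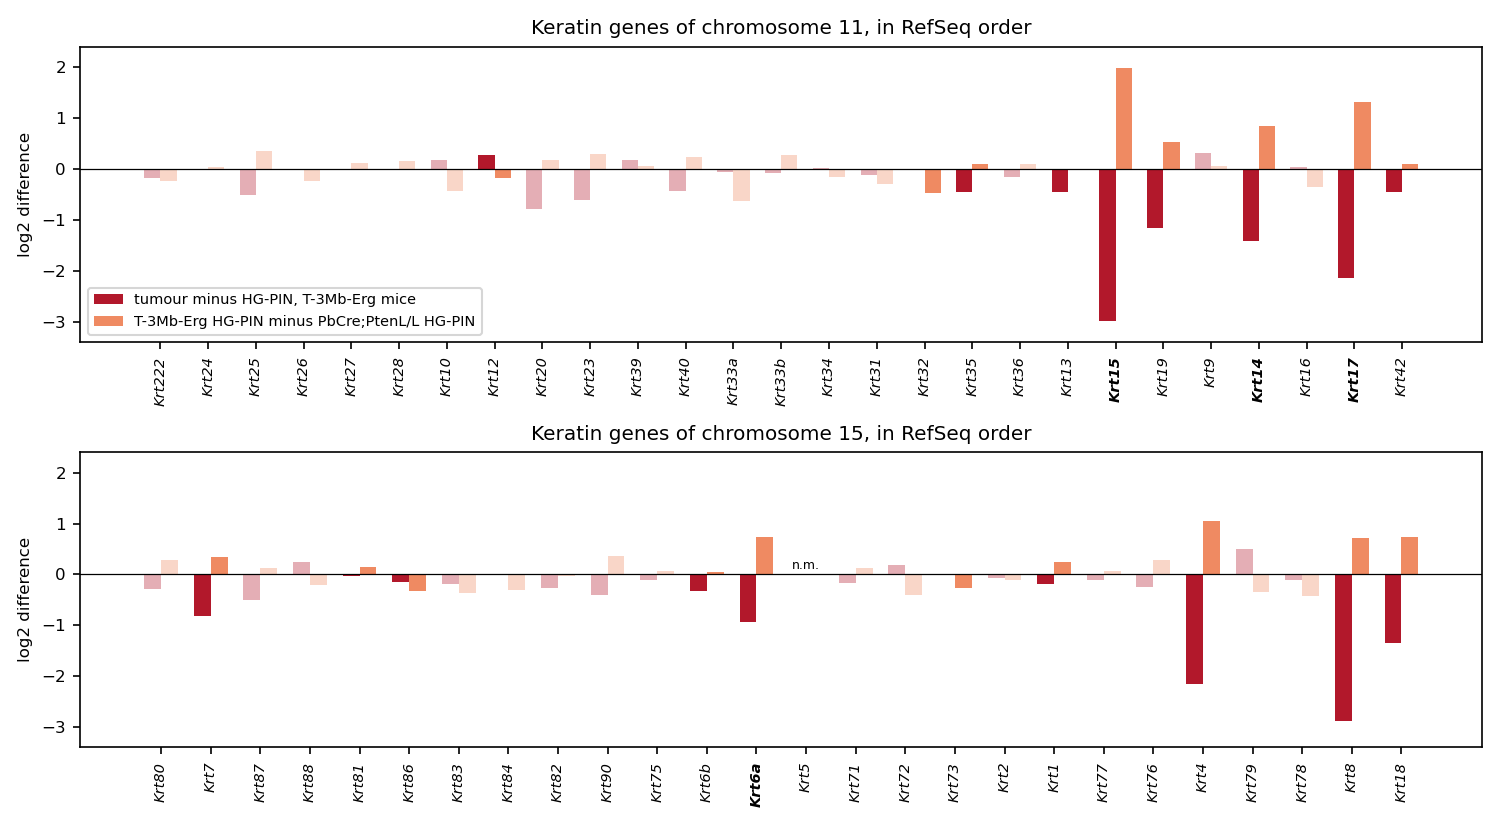
Bars show the log2 difference for each keratin gene of chromosomes 11 and 15 in RefSeq order, red for tumour minus HG-PIN of T-3Mb-Erg mice and orange for T-3Mb-Erg minus PbCre;PtenL/L HG-PIN, pale where no group mean exceeded the receptor level, with n.m. for a gene not measured. The largest bars are those of Krt15 (-3.0 and 1.98), Krt8 (-2.88 and 0.73), Krt4 (-2.16 and 1.04) and Krt17 (-2.14 and 1.32), with the tumour means of Krt4 and Krt17 below the receptor level.

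Of 44 tested keratins, Krt15 and Krt17 left out, 2 fell in tumours by the test, and neither is one of the 5 genes. Of all 16635 genes tested, limma called 0.216% lower in this comparison of tumours with HG-PIN of the same mice. Krt4, a type II keratin of stratified mucosa that also marks a luminal subset, read 4.20, 4.59 and 3.44 in tumours, 6.30, 6.59 and 5.82 in HG-PIN of the same mice, and 5.43, 4.96 and 5.20 in PbCre;PtenL/L HG-PIN. It fell by 2.16 (SE 0.34, adjusted p = 0.0294; 0.0455 under a fixed replicate block) and was lower in 3 of 3 mice. All its tumour arrays lay below the receptor level, which bounds how large a fall could be measured. Krt8, the luminal type II keratin, had a difference of -2.88 (SE 0.39, adjusted p = 0.0154), which did not pass with the fixed block (adjusted p = 0.0609). Its partner Krt18 stood at -1.35 (adjusted p = 0.623). These calls depended on single arrays: Krt4 stood at adjusted p = 0.211 without tumour replicate 1, 0.240 without T-3Mb-Erg HG-PIN replicate 1, 0.245 without its replicate 2 and 0.0536 without PbCre;PtenL/L HG-PIN replicate 3, and Krt8 at 0.171, 0.142 and 0.111 without the first 3 of these.

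The basal adhesion and p63-programme list had no gene past the test. Of 21 listed basal adhesion and p63-programme genes, such as the hemidesmosome genes Col17a1, Itgb4 and Dst and the desmosome genes Dsc3, Dsg3 and Pkp1, 18 were tested, and limma called 0 between tumours and HG-PIN, although 1 rise and 2 falls had an unadjusted p under 0.05. Their median difference was -0.33, against -0.01 over all genes, and 12 of 18 were negative. Without overlap, 5 of the 18 were lower in tumours and 1 was higher, while 6.43% of all genes tested were lower in this way. Cd44, a hyaluronan receptor, stood at -1.30 (SE 0.37, adjusted p = 0.291) and Snai2, a repressor of E-cadherin that basal cells also express, at 1.33 (SE 0.37, adjusted p = 0.253). Against PbCre;PtenL/L HG-PIN limma also called 0 in tumours, with 3 higher and 4 lower before adjustment, and the smallest p values were those of Perp, a desmosome protein (-1.01, adjusted p = 0.26), and Itgb4 (-0.68, adjusted p = 0.261). Between the HG-PIN groups limma called 0 of the 18, with 0 at an unadjusted p under 0.05, and the median was 0.13. The smallest p values there were those of the laminin receptor subunits Itga6 (0.72) and Itgb4 (-0.32), both at adjusted p = 0.998. Itga6 exceeded the receptor level on 6 of 9 arrays, and its tumour minus HG-PIN difference was positive in 2 mice and negative in 1.

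The lower keratin signals stood beside lower luminal genes in the same tumours. Of 16 tested luminal keratins and factors, 16 were negative between tumours and HG-PIN and 8 passed, with a median of -2.22. Against PbCre;PtenL/L HG-PIN 16 were also negative and 2 passed, Cldn4 at -2.98 (adjusted p = 0.0253) and Foxa1 at -2.56 (adjusted p = 0.0476). These 2 calls ended without PbCre;PtenL/L HG-PIN replicate 1 (0.148 and 0.215) or 3 (0.126 and 0.186), without tumour replicate 1 (0.111 and 0.184) or 3 (0.0669 and 0.135), without the third T-3Mb-Erg HG-PIN array (0.0503 and 0.0688), and with log2(value + 16) (0.0728 and 0.105) or the 6 arrays alone (0.0641 and 0.124). That of Foxa1 also ended when T-3Mb-Erg HG-PIN replicate 1 (0.0590) or 2 (0.0915) was left out and with arrays centred on their median (0.0776). Among the 8 were Cldn4, a tight junction protein (-3.76, adjusted p = 0.00436), Elf3 (-2.91, 0.0154) and Foxa1 (-2.74, 0.0306), both transcription factors of epithelia. Each lost its call without tumour replicate 1 (adjusted p = 0.0710, 0.145 and 0.214) or the first T-3Mb-Erg HG-PIN array (0.0562, 0.140 and 0.240), and Elf3 and Foxa1 also without T-3Mb-Erg HG-PIN replicate 2 (0.111 and 0.233), as did Foxa1 without PbCre;PtenL/L HG-PIN replicate 3 (0.0536), with arrays centred on their median (0.0562) and with log2(value + 16) (0.0634). The tumour means of all 3 lay below the receptor level, which limits the size of these differences. The summed intensity of the luminal list was 420 to 1017 in tumours, 2077 to 4300 in HG-PIN of the same mice and 1195 to 3804 in PbCre;PtenL/L HG-PIN. Tumours lay below both HG-PIN groups, which overlapped each other. The sums of the 4 keratins and Trp63 were 146 to 195, 571 to 816 and 221 to 280 in those groups. Krt15, chosen for its difference between the HG-PIN groups, is the brightest of the 5 probe sets on each HG-PIN array of T-3Mb-Erg mice, so nothing is read from their separation.

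Markers of other cells were also compared, and limma called none of the tested fibroblast, smooth muscle, endothelial or seminal vesicle genes in any comparison. At an unadjusted p under 0.05 in limma, 6 of 11 tested fibroblast and 2 of 8 endothelial genes were higher in tumours than in HG-PIN of the same mice. In that comparison 4 of 11 smooth muscle and 3 of 5 seminal vesicle genes were lower. Of all 16635 genes tested, 610 were higher and 662 lower at that level. The 11 fibroblast genes were all positive (median 1.55), and 8 of the 11 smooth muscle genes were negative (median -0.54). Between the HG-PIN groups all 11 smooth muscle genes (median 0.75) and all 11 fibroblast genes (median 0.42) were higher in T-3Mb-Erg lesions. Against PbCre;PtenL/L HG-PIN the 11 fibroblast genes were all higher in tumours (median 2.13). There 7 smooth muscle genes were higher and 4 lower (median 0.25). Of 9 tested macrophage and leucocyte genes 1 fell in tumours against HG-PIN of the same mice, Cd14, named after its values were seen (-1.73, adjusted p = 0.0409). Without tumour replicate 1 limma made 0 calls in that comparison. The summed intensity of 12 fibroblast genes was 722 to 4054 in tumours, 352 to 847 in HG-PIN of the same mice and 316 to 338 in PbCre;PtenL/L HG-PIN, and 8, 6 and 3 of the 12 had group means above the receptor level. That of 11 smooth muscle genes was 251 to 732, 323 to 1493 and 268 to 339, with 5, 7 and 4 above. That of 13 macrophage and leucocyte genes was 205 to 711, 289 to 517 and 237 to 249, with 3, 5 and 3 above. That of 9 endothelial genes was 167 to 394, 133 to 157 and 117 to 151, with 2, 1 and 0 above, and that of 5 measured seminal vesicle genes was 29.7 to 597, 491 to 6431 and 66.8 to 2718. Vim, the mesenchymal intermediate filament gene, read 8.94, 7.71 and 9.23 in tumours, 6.91, 7.42 and 6.17 in HG-PIN of the same mice, and 6.11, 6.91 and 6.49 in PbCre;PtenL/L HG-PIN. The part of these cells in the keratin differences was not tested. Without T-3Mb-Erg HG-PIN replicate 1, which had the highest smooth muscle sum, Krt15 stood at -2.90 and Krt17 at -2.18 for tumours minus HG-PIN, and at 1.88 and 1.36 for T-3Mb-Erg minus PbCre;PtenL/L HG-PIN.

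**Figure D4:**
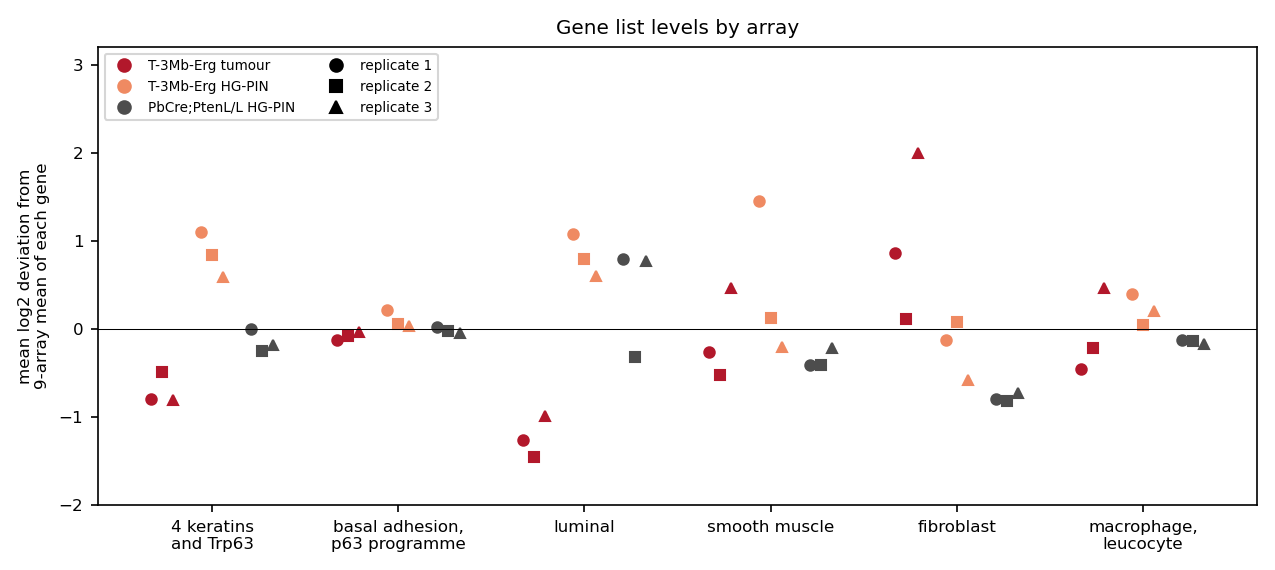
Each point is 1 array, and its height is the mean log2 deviation of a gene list from the 9-array mean of each gene, coloured by group. The 4 keratins and Trp63, chosen partly on these arrays, lie at 0.59 to 1.10 in T-3Mb-Erg HG-PIN and below 0 in all tumours. The basal adhesion and p63-programme list stays between -0.13 and 0.22 on every array. Only 4 of its 19 measured genes had a mean above the receptor level, which limits the size of its deviations. T-3Mb-Erg HG-PIN replicate 1 stands out in the smooth muscle list at 1.45.

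Genes with the profile most like that of each member were ranked by Pearson's r over the 9 arrays among 4187 named genes above the receptor level (4188 for Trp63). The arrays share 3 group means and 3 of the mice, and the values are a description. Krt15 was most like Gabrp, a GABA-A receptor subunit of epithelia (r = 0.97), Sh3rf1 (0.93), the zinc transporter Slc39a4 (0.93), Elf3 (0.93) and the MHC class I gene H2-K1 (0.93). Gabrp averaged 3.89 in tumours, 6.99 in HG-PIN of the same mice and 5.44 in PbCre;PtenL/L HG-PIN. Krt14 was most like Ly6d, a GPI-anchored surface protein (0.95), AI661453 (0.95), Emp2, an epithelial membrane protein (0.93), Fkbp4, a co-chaperone (0.93), and Krt4 (0.93). Ly6d averaged 5.74 in tumours, 8.27 in HG-PIN of the same mice and 7.19 in PbCre;PtenL/L HG-PIN. Krt17 was most like Anxa1, an annexin (0.92), Shkbp1 (0.91), the membrane mucin Muc4 (0.90), Man2b1 (0.90) and Pik3c3 (0.88). The 3 type I keratins were close to each other, with r = 0.85 for Krt14 with Krt15, 0.87 for Krt14 with Krt17 and 0.84 for Krt15 with Krt17. This was not particular to them. The luminal keratin Krt8 had 0.83, 0.86 and 0.71 with Krt14, Krt15 and Krt17. Krt4 had 0.93, 0.84 and 0.82 with them, and Krt18 had 0.51, 0.68 and 0.59. Krt6a had r = 0.28, 0.35 and 0.20 with Krt14, Krt15 and Krt17, and Trp63 had 0.33, 0.35 and 0.01. Their nearest genes were Ssh1 (0.92), Olfr1362, Klhdc4, Klhl26 and Alox5 for Krt6a and Psmb10 (0.92), Ttll10, Pth2, B9d1 and Prph2 for Trp63, and no other listed basal gene was among the nearest 5 of any member.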

How the data were processed

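The authors' deposited intensity values (linear scale, 41345 probe sets, Affymetrix Mouse Gene 2.0 ST arrays, NuGEN Ovation V2 amplification of RNA from fixed tissue, per the labels' protocols) lay between 1.36 and 13922. How background, probe summary and normalization were handled is not given in the sources at hand, and scaling can affect the differences. Names came from the platform annotation, updated by Entrez identifier with RefSeq genes of GRCm38.p6: 23521 had 1 symbol (23328 matched), 1814 several, 16010 none. The brightest probe set per symbol was kept, log2 was taken without a pseudocount, and the lowest 25% by mean (under 3.25) were removed, which left 16635 genes.

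limma 3.58.1 (R 4.3.3) gave the differences: a mean per group on 9 arrays, the mouse as a random block (consensus correlation -0.01), trended empirical Bayes, Benjamini-Hochberg adjustment over all genes, called under 0.05. Arrays of a group come from separate mice; tumour and HG-PIN of a T-3Mb-Erg mouse are paired by the mouse identifier in the labels, and their deviations from the group means correlated at 0.17, 0.10 and -0.30. Named genes were the 5 members, Krt8 and Krt18, the other basal keratins by level, up to 4 called genes (or else the 2 with the smallest p) of each epithelial list, the 5 most alike by correlation, and Acta2 and Vim as markers; others, such as Krt13, Krt19, Krt25, Myh11 and examples of the adhesion list, were chosen after their values were seen. Members and lists were chosen with earlier results of these data known.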

Additional observations from a re-analysis of the deposited data

How the results depend on the processing

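The 21 alternatives left the signs of Krt14, Krt15 and Krt17 as they were in every comparison. For tumours minus HG-PIN of T-3Mb-Erg mice Krt15 lay between -3.24 and -2.64, Krt17 between -2.55 and -1.40 and Krt14 between -1.68 and -1.04. For T-3Mb-Erg minus PbCre;PtenL/L HG-PIN they lay between 1.70 and 2.22, 0.95 and 1.73, and 0.56 and 1.03, and for tumours minus PbCre;PtenL/L HG-PIN between -1.36 and -0.78, -1.14 and -0.46, and -0.76 and -0.38. Krt6a for tumours minus PbCre;PtenL/L HG-PIN lay between -0.54 and 0.23 without 1 array, and turned to 0.10 with array weights, 0.13 without PbCre;PtenL/L HG-PIN replicate 2 and 0.23 without tumour replicate 3; the cause was not tested. Trp63 was not tested where only genes above the receptor level entered. The mouse as a fixed replicate block, possible for tumours against HG-PIN of the same mice alone, changed no call of a member.

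Counts of called genes moved widely, so the shares of called genes carry that uncertainty; the cause was not tested. For tumours against HG-PIN (11 higher, 36 lower) there were 17 higher above the receptor level, 29 higher with quantile normalization, 6 and 12 with arrays centred on their median, 7 and 11 with log2(value + 16), 226 and 179 with array weights, 1 higher with the fixed replicate block, 7 higher on the 6 arrays alone, and 66 and 128 with the range term. Leaving out 1 array gave 0 to 85 higher and 0 to 84 lower, with 0 of both when tumour replicate 1 was left out and 0 and 5 when the first T-3Mb-Erg HG-PIN array was. Between the HG-PIN groups (0 and 0) there were 8 and 1 with array weights, 2 and 2 on the 6 arrays and 7 higher with the range term, and 0 to 4 and 0 to 2 without 1 array. For tumours against PbCre;PtenL/L HG-PIN (18 and 12) there were 22 lower above the receptor level, 48 and 40 with quantile normalization, 8 and 4 with centred arrays, 8 and 0 with log2(value + 16), 515 and 423 with array weights, 6 and 1 on the 6 arrays and 106 and 90 with the range term, and 0 to 216 and 0 to 70 without 1 array.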

Other observations

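Genes of cornified epithelium did not move with the keratins as a group. Of 15 tested squamous differentiation genes, 8 were higher and 7 lower in tumours than in HG-PIN of the same mice, with a median of 0.06, and Krt4 was the 1 that passed. Sprr1a, a cornified envelope precursor, read 6.58, 5.11 and 5.39 in tumours, 8.99, 9.86 and 7.55 in HG-PIN of the same mice, and 8.35, 6.77 and 9.35 in PbCre;PtenL/L HG-PIN, lower in 3 of 3 mice (-3.10, adjusted p = 0.146; 0.0312 to 0.703 over the alternatives). Krtdap, a secreted protein of differentiating keratinocytes, ran the other way. It read 7.23, 5.63 and 9.38 in tumours, 4.59, 4.87 and 5.01 in HG-PIN of the same mice, and 4.59, 4.98 and 4.56 in PbCre;PtenL/L HG-PIN, so every tumour lay above every HG-PIN array. The difference within T-3Mb-Erg mice was 2.59 (adjusted p = 0.233; 0.0169 to 0.831 over the alternatives). Without tumour replicate 2 it was 3.47 (adjusted p = 0.0213), and without tumour replicate 3 it was 1.63, the lowest over the alternatives. Its neighbours on chromosome 7, Dmkn and Sbsn, chosen after their values were seen, stood at 1.02 and 0.99 (adjusted p = 0.447 and 0.452). Tumour replicate 3, with the highest Krtdap and Sbsn, also had the highest fibroblast sum, 4054, and the part of this in the values was not tested.

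Among genes of luminal progenitors, Clu and Wfdc2 fell in tumours by 3.15 and 3.09 (adjusted p = 0.0328 and 0.0370; 0.0750 and 0.0848 with the fixed replicate block), 2 of 6 tested genes of that list. Both calls ended with arrays centred on their median (adjusted p = 0.0627 for both), with log2(value + 16) (0.0634 for both), without tumour replicate 1 (adjusted p = 0.211 for both) or without T-3Mb-Erg HG-PIN replicate 1 or 2 (up to 0.241 for Clu and 0.245 for Wfdc2), that of Clu also without tumour replicate 2 (0.0540) and that of Wfdc2 without PbCre;PtenL/L HG-PIN replicate 3 (0.0709).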
